A study of Mus musculus with 4 samples.

Results

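The baseline expression of untreated NIH-3T3 cells was read from a single array, 1 of the 4 in the series. Genes were ranked by the background-corrected brightness of their probes, and a gene was kept when the scanner software had marked a probe of it as well above background. Of 20895 genes with a symbol and a probe, 16162 were detected on the untreated array in this way, which was 77.3% of them. NIH-3T3 is an established line of mouse fibroblasts that came from embryos of NIH Swiss mice. The study exposed it to compounds designed to activate chaperone-mediated autophagy, the pathway by which selected cytosolic proteins are taken up one by one into lysosomes. All 4 cultures were wild type and were grown to confluency in DMEM with 10% serum, which is fetal bovine serum in the labels and newborn calf serum in the study's methods. The untreated culture received no treatment according to its label. The other cultures received 20 µM of AR7, CA39 or CA77, dissolved in DMSO, and were collected after 24 h. The label of the untreated culture names no DMSO, so its vehicle may differ from that of the treated cultures. Each condition was 1 culture on 1 array, so no difference between arrays could be tested and no p-value is given. The treated arrays served here to show whether a gene detected in untreated cells was seen again and at a like rank.

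Fibroblasts build and remodel connective tissue. They secrete collagens, fibronectin and proteoglycans, hold on to this matrix through integrins, take their growth cues from platelet-derived and other growth factors through receptor tyrosine kinases, and release chemokines that call in leukocytes. Their transcription factors include mesenchymal homeobox genes such as Prrx1 and Twist1, the serum response factor and its partners, and a combination of Hox genes that records where in the embryo the cells arose. NIH-3T3 cells are a standard host for work on serum-driven growth and on transformation.

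A level is given here as the log2 of the background-corrected signal of a gene's brightest detected probe. Its percentile is the share of the 16162 detected genes with a signal at or below it. Signal depends on how well a probe binds as well as on its RNA, so the order is an order of probe brightness and not of molecules. The spots of probes printed 10 times varied by a median SD of 0.12 on the log2 scale, or 1.15 percentile points. Where a gene had more than 1 detected probe, which was the case for 4051 genes, the brightest and the next probe differed by a median of 1.66 on the log2 scale, or 15.1 percentile points, and in 10% of these genes by over 43.6 points. Genes whose percentiles lie within about 15.1 points of each other therefore have no settled order. The number of arrays limits the precision further, since culture-to-culture spread was not measured.

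The detection mark reached down to low signals on this array. Of 308 negative control spots, 3 were marked as well above background, a share of 0.974% (95% Wilson interval 0.332 to 2.82%, counting error only), beside 3.57%, 2.92% and 2.6% on the AR7, CA39 and CA77 arrays. Of 1058 olfactory receptor genes, which serve smell and are not known for a role in fibroblasts, 371 were nevertheless marked as detected (35.1%), and of 287 vomeronasal and taste receptor genes 115 were (40.1%). These 486 marked genes had a median log2 signal of 6.64 and reached up to 12.55. The 95th percentile of all 1345 chemosensory receptor genes, marked or not, lay at a log2 signal of 7.98, which was percentile 28.8 of the detected genes, and 11502 genes were detected above it (55.0% of all), among them 68 of the 486. Both marks, detection and a signal above this chemosensory level, are given below, and the counts of each list are to be read beside the shares of 77.3% and 55.0% over all genes. The 84 detected genes of 85 for cytosolic ribosomal proteins, which every cell needs, had a median percentile of 99.5.

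**Figure D1:**
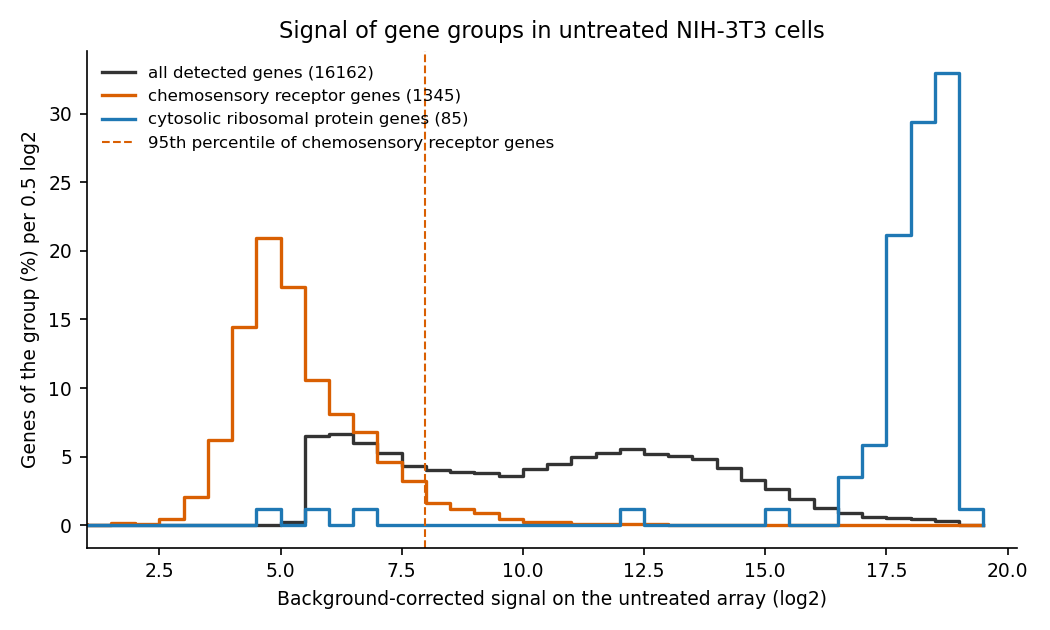
Distribution of the background-corrected signal (log2, horizontal axis) on the untreated array, as the percentage of each group of genes per bin. The chemosensory receptor genes, detected or not, lie mostly below the dashed line at their 95th percentile of 7.98. The ribosomal protein genes lie mostly at the bright end, and the detected genes span log2 signals from 4.85 to 19.10.

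Detection recurred on the treated arrays according to brightness. The treated arrays detected 13673 genes (AR7), 13637 genes (CA39) and 15009 genes (CA77), and 13033 genes were detected on all 4 arrays (62.4% of all). Of the dimmest decile of the genes detected in untreated cells, 0.866% were detected on all 4 arrays, of the next decile 21.5%, of the decile above that 86.6%, and of each brighter decile 98.4% or more. Across genes detected on both arrays, the Spearman correlation of the untreated signal with the treated signal was 0.994 with the AR7 array, 0.982 with the CA39 array and 0.994 with the CA77 array. These describe genes within arrays, and genes are not independent replicates. Among the 13011 genes followed on all 4 arrays, 20 moved by over 20 percentile points between untreated and AR7, 139 between untreated and CA39 and 10 between untreated and CA77. Of these 13011 genes 0 stood over 20 points above or below all 3 treated arrays at once. Genes missed on a treated array could not enter this comparison.

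Of the detected genes 1263 carried the mark on the untreated array alone, but the mark began at different signals on the 4 arrays. The dimmest 5% of detected genes lay under a log2 signal of 5.88 on the untreated array, and under 7.49, 7.18 and 6.28 on the AR7, CA39 and CA77 arrays. Of the 1263 genes 1160 (91.8%) had a higher signal on at least 1 treated array, where they were not marked. By array, 1156 (91.5%) read higher with AR7, 424 (33.6%) with CA39 and 138 (10.9%) with CA77 than untreated. The direction thus depended on the array, and the arrays were not scaled to each other. A mark in untreated cells alone therefore does not by itself show a higher signal there. Of the 1263 genes 7 exceeded the chemosensory level. Htr1b, a serotonin receptor, led these with a log2 signal of 9.25 on the untreated array beside 5.66, 4.32 and 4.79 on the AR7, CA39 and CA77 arrays. Foxq1, a forkhead factor, read 8.53 beside 6.48, 5.27 and 5.79 in log2 signal. The other genes of this kind were Foxa2, Fgf20 and Crmp1, the lncRNA C230012O17Rik and the pseudogene 4930594C11Rik. In the other direction, 0 genes were detected on all 3 treated arrays and missed on the untreated array, 32 were detected on 2 of them and 529 on 1 of them. These 7 genes were picked out after their values were seen.

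The brightest genes of untreated cells made ribosomes and the cytoskeleton, with a single secreted product among the foremost. Of the 20 brightest genes, 13 encoded cytosolic ribosomal proteins, and of the 100 brightest 47 did. Rpl41, a small protein of the large ribosomal subunit, ranked at position 1 on every array, with log2 signals of 19.10, 19.09, 19.09 and 19.02 on the untreated, AR7, CA39 and CA77 arrays. Rplp0, of the ribosomal stalk, ranked at position 4 with a log2 signal of 18.92. Other ribosomal genes among the 20 included Rpl14, Rpl10, Rps24, Rps16, Rpl23, Rps28, Rpl35, Rpl29 and Rpl9. Gm6548 and Rpl37rt, a transcribed pseudogene and a retrotransposed copy, also ranked among the 20. Their probes may bind RNA of the parent genes, and this was not tested.

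Tuba1b, an alpha-tubulin of microtubules, ranked at position 2 with a log2 signal of 18.98, and Actb, cytoplasmic beta-actin, at position 10 with 18.79. Cox6a1, a subunit of cytochrome c oxidase, closed the list of 20. Ccl2, a chemokine that attracts monocytes, ranked at position 3. Its log2 signal was 18.93 on the untreated array, 19.03 with AR7, 15.89 with CA39 and 18.94 with CA77. It thus held position 2 on the AR7 and CA77 arrays and position 708 on the CA39 array, where it was still detected. Of the 20 genes, 18 were among the 20 brightest on the AR7 array and 17 each on the CA39 and CA77 arrays, and of the 100 brightest genes 94, 94 and 95 recurred.

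The ribosomal genes held 81 of their 85 members in the brightest decile of detected genes. The other 4 were paralogues. Rps4l was not detected. Rpl10l and Rpl3l, copies known for use in testis and in striated muscle, read log2 signals of 5.75 and 6.52, both under the chemosensory level, while Rpl7l1 read 12.31. Gapdh, a glycolytic enzyme, stood at percentile 99.8, and Lamp2, the lysosomal membrane protein of which one splice form is the receptor of chaperone-mediated autophagy, at percentile 92.1 on the untreated array. Lamp2 read log2 signals of 15.10, 15.24, 15.14 and 15.14 on the 4 arrays.

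Markers of the labelled cell type were bright. Of 17 fibroblast markers 16 were detected and 15 exceeded the chemosensory level, with a median percentile of 86.7 for the detected ones. S100a4, a calcium-binding protein of motile mesenchymal cells, read log2 signals of 18.31, 18.26, 18.07 and 18.10 on the untreated, AR7, CA39 and CA77 arrays. Vim, the intermediate filament vimentin, read 17.44, 17.26, 17.64 and 17.37 in log2 signal. Both lay within a narrow band on all 4 arrays. Thy1, a surface glycoprotein, and Ddr2, a collagen receptor, stood at log2 signals of 13.43 and 13.26 in untreated cells. Fap, a serine protease of activated fibroblasts, read log2 signals of 5.92, 6.29, 5.76 and 5.34 on the 4 arrays and carried the mark on the untreated array alone. Pdgfrb, a receptor of platelet-derived growth factor known from fibroblasts, was not detected in untreated cells and read log2 signals of 5.35, 5.37, 8.83 and 4.22 on the 4 arrays, with detection on the CA39 array only. A single probe stood for each of these last 2 genes.

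Markers of other cell types were detected too, but lower. The median percentile of the detected markers was 21.0 for epithelium (9 of 14 detected), 18.8 for endothelium (10 of 12), 39.4 for blood cells (10 of 12 with a probe), 9.82 for skeletal muscle (9 of 11), 39.2 for neurons (7 of 10) and 19.5 for adipocytes (7 of 8). Above the chemosensory level stood 1 of 14 epithelial markers (Esrp1), 3 of 12 endothelial, 6 of 12 blood cell, 1 of 11 skeletal muscle (Des), 5 of 10 neuronal and 2 of 8 adipocyte markers, beside 55.0% of all genes. Some defining markers were not detected and others were detected on all 4 arrays. Cdh1, Tie1, Tyrobp, Myf5, Nefl and Adipoq were detected on no array, and Ptprc, the pan-leukocyte antigen, read a log2 signal of 6.13 in untreated cells. Detected on all 4 arrays, with these log2 signals in untreated cells, were the blood cell markers Cd14 (11.76), Lcp1 (11.60), Csf1r (11.54) and Cd3e (10.35). So were the synaptic genes Snap25 (11.81) and Syp (11.52), the adipocyte marker Fabp4 (11.23) and the endothelial marker Pecam1 (8.44). Among the brighter ones, Itgam, a leukocyte integrin subunit, read log2 signals of 12.37, 12.48, 12.67 and 12.04 on the 4 arrays, although its other probes read 8.12 and 8.03 on the untreated array. Elavl4, a neuronal RNA-binding protein, read 12.40, 12.53, 12.16 and 12.44 in log2 signal, with 6.91 on its second probe. Of the contractile genes that fibroblasts share with smooth muscle, 9 of 10 were detected, led by Tpm1 (log2 signal 14.41), Smtn (12.89) and Tpm2 (12.20), while Acta2, the alpha-actin of smooth muscle and myofibroblasts, read 9.19. In RNA of a whole culture, fewer cells of a type and less RNA per cell cannot be told apart, and the part of foreign cells or of unspecific binding in these values was not tested.

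Core promoters of 4 bright genes are shown as examples with and without a TATA box. They were chosen among the genes with a promoter entry, which Actb, Col1a1 and Ccl2 did not have. A TATAAA box lies shortly before the start of a minority of genes and fixes where transcription begins. The letters TATAAA were searched on the sense strand, with their first base 40 to 20 bases before the start, in the RefSeq promoters (build GRCm38.p6) of the 16560 genes that had an entry. The 60 bases before the start are printed 5′ to 3′ for a pair of fibroblast markers with the box, which is in capitals, and for the brightest gene and the brightest collagen gene, which lack it in that window. S100a4 comes from chr3:90603710-90603769 (plus strand), Vim from chr2:13574251-13574310 (plus strand), Rpl41 from chr10:128549169-128549228 (minus strand) and Col1a2 from chr6:4505558-4505617 (plus strand).
S100a4: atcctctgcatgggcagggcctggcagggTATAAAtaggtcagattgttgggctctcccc
Vim: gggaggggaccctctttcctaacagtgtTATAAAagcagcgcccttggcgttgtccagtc
Rpl41: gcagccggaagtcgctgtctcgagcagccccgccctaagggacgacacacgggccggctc
Col1a2: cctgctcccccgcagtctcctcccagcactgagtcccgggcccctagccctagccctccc

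The box began 31 bases before the start of S100a4 and 32 bases before that of Vim. It was found in 3.02% of all these promoters (500 of 16560). The share was 2.4% among genes detected in untreated cells (307 of 12812), 1.63% among those above the chemosensory level (151 of 9239), 2.04% among the brightest decile (27 of 1326) and 5.29% among genes that no array detected (175 of 3306). Promoters of ribosomal protein genes held it in 1 of 64 cases. Bright genes with the box included Ppia, a prolyl isomerase, the histone genes H2ac22 and H3f3b, Anxa1, a phospholipid-binding annexin, and Prdx1, a peroxidase, all between log2 signals of 16.56 and 18.61. A match of letters is a description and does not show use of the box.

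The 5 families chosen for the description held 982 different genes with a probe, and they differed more in brightness than in detection. Detected were 136 of 173 matrix genes (78.6%), 196 of 253 receptors (77.5%), 137 of 185 transcription factors (74.1%), 171 of 203 transporters (84.2%) and 119 of 168 growth factors (70.8%), beside 77.3% of all genes. Matrix genes and receptors thus lay at the background share. Above the chemosensory level stood 57.8% of matrix genes, 50.6% of receptors, 45.9% of transcription factors, 58.1% of transporters and 36.9% of growth factors, beside 55.0%. The median percentile of the detected members was 50.3, 43.1, 34.3, 44.8 and 29.9 in the same order. The lists do not hold every gene of a kind. Atf4, a transcription factor outside them, read a log2 signal of 18.22, in the brightest decile of detected genes. Among the list members, that decile held 15 matrix genes, 9 receptors, 3 transcription factors, 16 transporters and 8 growth factors. These were 8.67%, 3.56%, 1.62%, 7.88% and 4.76% of the members, beside 7.74% of all genes, so matrix genes and transporters lay near the background share there. On all 4 arrays were 65.3% of matrix genes, 58.1% of receptors, 53.5% of transcription factors, 68.0% of transporters and 43.5% of growth factors, beside 62.4%. On no array were 32 matrix genes, 47 receptors, 45 transcription factors, 32 transporters and 43 growth factors. These were 18.5%, 18.6%, 24.3%, 15.8% and 25.6% of the members, beside 20.0% of all genes.

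**Figure D2:**
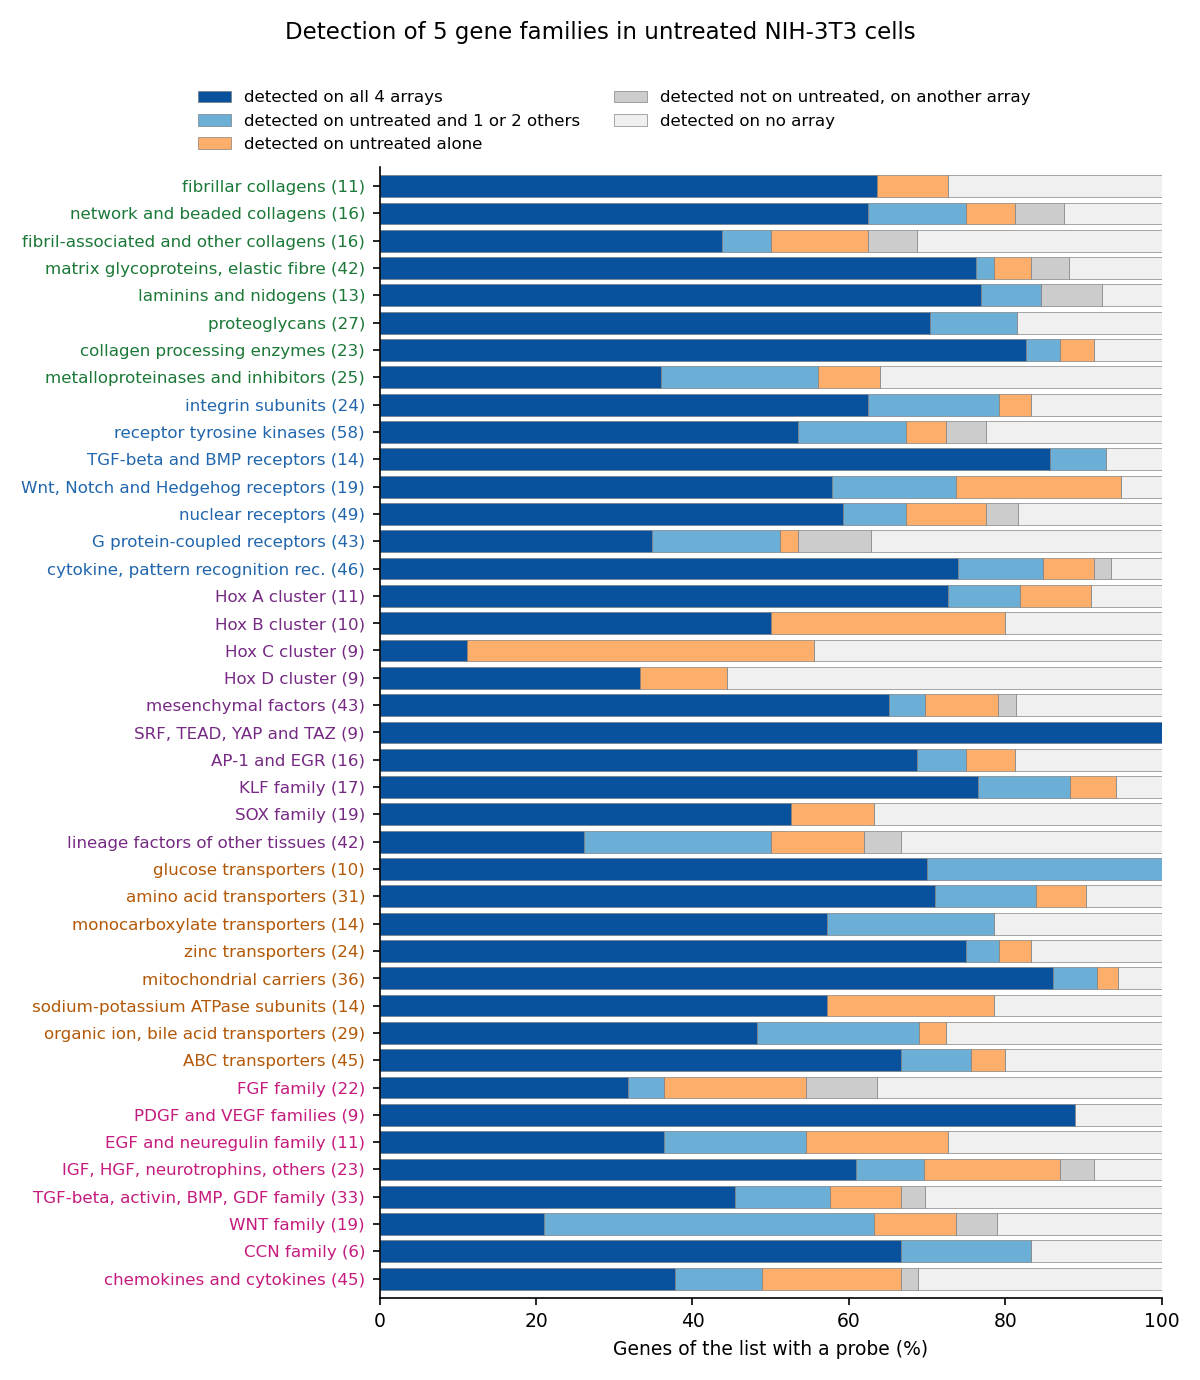
Detection of the members of each list, as a percentage of the genes with a probe (number in brackets), coloured by family: green for matrix, blue for receptors, purple for transcription factors, brown for transporters and pink for growth factors. All members of the lists of glucose transporters and of SRF, TEAD, YAP and TAZ were detected in untreated cells, and the Hox C, Hox D, G protein-coupled receptor and FGF lists had many members that were seen on no array.

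The extracellular matrix genes of untreated cells ranged from very bright to undetected, with a median percentile of 50.3 among those detected. Type I collagen, SPARC, decorin and fibronectin were among the brightest members. The elastic fibre genes Fbn1, for fibrillin-1, and Eln, for elastin, read log2 signals of 10.25 and 7.46, the latter under the chemosensory level. Other genes of the list of glycoproteins and elastic fibre proteins were bright, such as Mfap5 (15.63) and Emilin2 (15.18). Col1a2, a chain of type I collagen, read log2 signals of 18.30, 17.96, 18.56 and 17.82 on the untreated, AR7, CA39 and CA77 arrays. Col1a1, which makes up the rest of that trimer, read 15.62, 14.62, 16.64 and 14.66 in log2 signal. Both were highest with CA39 and lower with AR7 and CA77 than untreated. Of 11 fibrillar collagen genes 8 were detected (72.7%) and 6 exceeded the chemosensory level, led by these and Col5a1 (log2 signal 13.41), a chain of the type V collagen that nucleates fibrils. Col3a1, which accompanies type I collagen in many tissues, read only 8.46 on its probe, just above the chemosensory level. Col11a1, Col24a1 and Col27a1 were on no array.

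Network and beaded collagens were detected for 13 of 16 genes (81.2%, beside 77.3% of all genes), 9 of them above the chemosensory level, with a median percentile of 67.4. Col7a1, of the fibrils that anchor epidermis, led with a log2 signal of 14.28, followed by Col4a1 of basement membranes (13.93) and Col6a1 of beaded filaments (13.88). Col4a3, which is restricted to few basement membranes such as that of the kidney glomerulus, and Col6a5 were on no array. The fibril-associated and other collagens were dimmer, with 10 of 16 detected, 4 of them above the chemosensory level, and a median percentile of 24.9. Col16a1 read a log2 signal of 14.81, Col18a1, the source of endostatin, 13.15 and Col20a1 10.81. Col9a3 of cartilage, Col19a1 and Col13a1 were on no array, and Col12a1 had no probe of that name.

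Glycoproteins and elastic fibre proteins were detected for 35 of 42 genes (83.3%), of which 29 exceeded the chemosensory level. Sparc, a secreted collagen-binding protein, read log2 signals of 17.85, 17.52, 17.93 and 17.28 on the 4 arrays, with 13.96 on its second probe in untreated cells. Fn1, fibronectin, read 16.54, 16.36, 17.999 and 16.26 in log2 signal, and Efemp1, a fibulin, 16.32, 15.73, 16.46 and 15.65. Fn1 stood highest on the CA39 array. Thbs4, Tnn and Vtn were on no array. Tnc and Postn, matricellular proteins of wound and tendon, were not detected in untreated cells. Postn read log2 signals of 5.53, 5.77, 14.22 and 5.70 on the 4 arrays, so it was seen on the CA39 array alone.

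Laminins and nidogens, the cross-shaped trimers and linkers of basement membranes, were detected for 11 of 13 genes (84.6%), 10 of them above the chemosensory level. Lamb1 (log2 signal 14.21) and Lamc1 (14.18) led. Of the alpha chains Lama5 was the brightest at 12.35, and Lama4 was on no array. Proteoglycans were detected for 22 of 27 genes (81.5%, close to the 77.3% of all genes), 16 of them above the chemosensory level. Dcn, decorin, which binds collagen fibrils, read log2 signals of 17.18, 17.66, 11.51 and 17.35 on the 4 arrays, and Lum, lumican, read 14.61, 14.06, 10.47 and 14.80. Both were lowest with CA39. Gpc1, a membrane-anchored glypican, stood at 16.83. Aspn, Kera and Bcan, known from cartilage, cornea and brain, were on no array.

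The enzymes that process collagen were among the most complete lists of the matrix. Of 23 genes 21 were detected and 19 exceeded the chemosensory level, with a median percentile of 56.0. Pcolce, which enhances removal of the procollagen C-propeptide, read log2 signals of 18.02, 17.84, 18.04 and 17.52 on the 4 arrays. P4hb, a subunit of prolyl 4-hydroxylase, and Serpinh1, the collagen chaperone HSP47, both read 15.89 in log2 signal, and Lox, which cross-links collagen and elastin, read 14.61. P3h2 and Adamts3 were on no array. Of the metalloproteinases that degrade matrix and their tissue inhibitors, Timp2 and Timp1 read log2 signals of 17.15 and 14.83. The other inhibitors, Timp3 and Timp4, read 8.83 and 7.65 in log2 signal, and Mmp2, a gelatinase, read 12.86. Of the 25 genes of this list 16 were detected, but only 7 above the chemosensory level. Mmp1a, Mmp3 and Mmp8, a collagenase, a stromelysin and the neutrophil collagenase, were on no array.

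**Figure D3:**
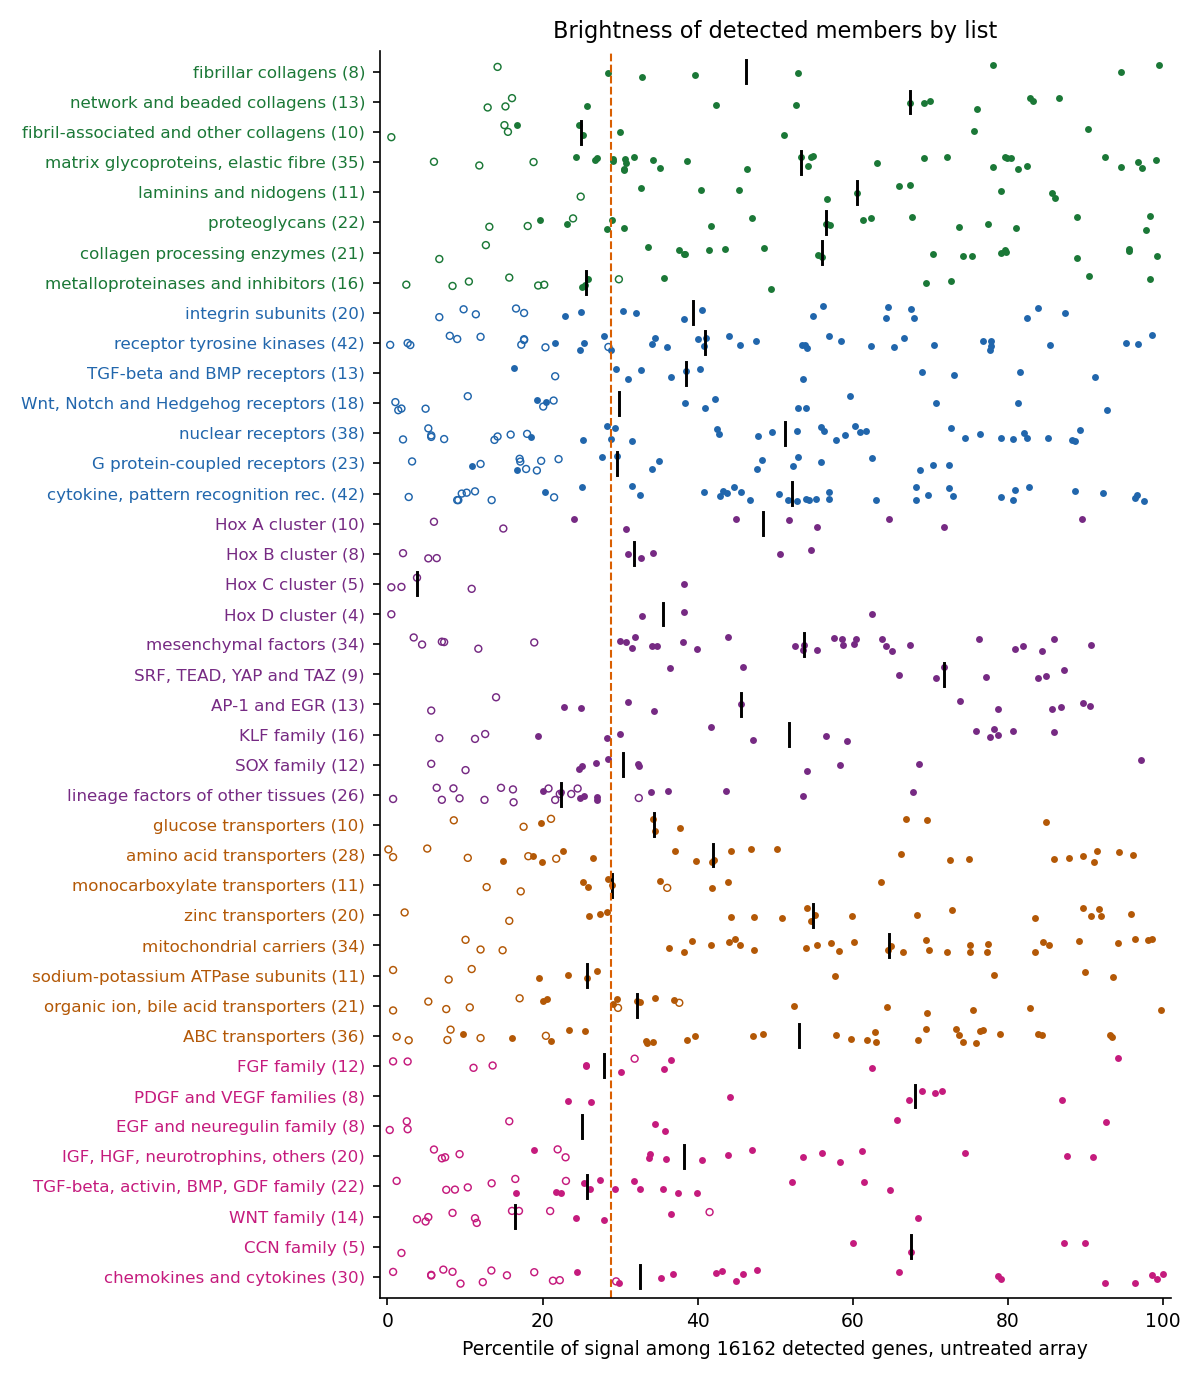
Percentile of the signal of every detected member (points) in each list, on the untreated array. Filled points were detected on all 4 arrays, open points on fewer. The black bar is the list median and the dashed line, at percentile 28.8, is the chemosensory level. Open points lie mostly to the left of that line, and the mitochondrial carriers, SRF partners and PDGF and VEGF families have their medians far to the right.

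Receptors were present for matrix, for growth factors and for cytokines, and few of them reached the brightest decile. Of 26 integrin subunits, the chains that link matrix to the cytoskeleton, 24 had a probe, 20 were detected (83.3%, beside 77.3% of all genes) and 13 exceeded the chemosensory level (54.2%, beside 55.0%). Itga6, a chain of laminin receptors, read a log2 signal of 14.37, Itgb5 13.99 and Itgb1, the most widely shared beta chain, 13.84. Itgb5 read 13.99, 13.66, 15.70 and 13.43 on the 4 arrays, highest with CA39. Itga2, Itga4 and Itga9 were on no array. Itga5, the partner of Itgb1 in the fibronectin receptor, stood at 9.46.

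Receptor tyrosine kinases were detected for 42 of 58 genes, 26 of them above the chemosensory level. Ephb3, a receptor of membrane-bound ephrins, read log2 signals of 17.37, 17.44, 17.13 and 17.34 on the 4 arrays. Epha5, of the same family, read 16.33, 16.39, 16.08 and 16.34 in log2 signal, but its second probe read 7.06 in untreated cells, so the brightness of the gene rests on 1 probe. Axl, the receptor of Gas6, read 15.78, 15.93, 15.60 and 15.59. All of them kept their places on the 4 arrays. Fgfr1 followed at 14.15. Pdgfra, the alpha receptor of platelet-derived growth factor, read 11.40, and Egfr and Erbb2, receptors of the epidermal growth factor family, read 11.11 and 11.09 in log2 signal. Insrr, Kit and Flt4 were on no array.

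Of 14 receptors for TGF-beta and bone morphogenetic proteins 13 were detected, 12 of them on all 4 arrays and 11 above the chemosensory level. Tgfbr2 read log2 signals of 14.97, 14.91, 15.34 and 14.56, Tgfbr3 stood at 13.75 and Acvr1 at 12.91. The remaining member, Acvr1c, was on no array. Receptors of Wnt, Notch and Hedgehog ligands were detected for 18 of 19 genes, but 4 of these with the mark in untreated cells alone and only 9 above the chemosensory level. Smo, the transducer of Hedgehog signals, read log2 signals of 15.24, 15.25, 15.27 and 14.99 on the 4 arrays. Fzd2 read 13.71 and Notch2 12.68 in untreated cells, and Fzd9 was on no array.

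Nuclear receptors, which are transcription factors switched by lipid ligands, were detected for 38 of 49 genes (77.6%, the background share), 25 of them above the chemosensory level, with a median percentile of 51.2. Rxrb, a shared partner of many of them, Esrra and Nr1h2, which senses oxysterols, read log2 signals of 14.66, 14.57 and 14.51. The compounds of the study were designed as ligands of the retinoic acid receptor alpha, whose gene Rara read 13.50 in untreated cells, with Rarg at 13.80, while Rarb was not detected there. Thrb, Rora and Hnf4a were on no array. G protein-coupled receptors formed the sparsest receptor list, with 23 of 43 detected (53.5%), 12 of them above the chemosensory level. S1pr3, which binds sphingosine 1-phosphate, read log2 signals of 12.83, 12.70, 11.26 and 12.36 on the 4 arrays, Lpar6, a lysophosphatidic acid receptor, 12.66 in untreated cells and F2r, a thrombin receptor, 12.48. Lpar3, S1pr4 and S1pr5 were on no array.

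Receptors of cytokines and microbial patterns were detected for 42 of 46 genes (91.3%, beside 77.3% of all), 32 of them above the chemosensory level. Il1rl1, the receptor of interleukin 33, read log2 signals of 16.72, 16.91, 15.55 and 16.64 on the 4 arrays. Of its further probes in untreated cells one read 16.14 and the other 10.74. Tnfrsf12a, the receptor of TWEAK, read 16.26. Csf3r, the receptor of granulocyte colony-stimulating factor, read 16.14, 16.28, 16.04 and 16.11. The receptor of tumour necrosis factor Tnfrsf1a stood at 15.13 and the shared interleukin 6 transducer Il6st at 13.68. Among Toll-like receptors, Tlr2 (11.98), Tlr9 (11.40) and Tlr4 (10.87) were among those detected on all 4 arrays. Il1rap, Il7r and Cd40 were on no array, so the accessory chain that Il1rl1 needs for signalling was not seen.

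Among transcription factors the mesenchymal ones were detected at a share close to that of all genes. Of 43 mesenchymal factors 34 were detected (79.1%, beside 77.3% of all genes), 28 of them on all 4 arrays and above the chemosensory level in the same number. Foxp1 read log2 signals of 14.88, 14.64, 14.96 and 14.31 on the 4 arrays. Prrx2 and Prrx1, paired-related homeobox genes of limb and face mesenchyme, read 14.21 and 14.04, Osr1 13.80 and Foxc1 13.68. Twist2 and Twist1 stood at 13.21 and 12.15, and Snai1 and Snai2 at 11.55 and 11.46 in log2 signal. Tcf21, Meox1 and Foxf1 were on no array.

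All 9 genes for the serum response factor, its coactivators, the TEAD factors and their coactivators YAP and TAZ were detected on all 4 arrays and above the chemosensory level, with a median percentile of 71.8. Yap1 read log2 signals of 14.35, 14.40, 14.34 and 14.08 on the 4 arrays. Mrtfa, an actin-regulated coactivator of SRF, read 14.10 in untreated cells, Tead2 13.99, Srf 12.79 and Wwtr1, which encodes TAZ, 12.23. Of 16 AP-1 and EGR genes, the early responders to serum, 13 were detected (81.2%, beside 77.3% of all genes), 9 of them above the chemosensory level. Jund read 14.86, Egr1 14.70 and Jun 14.30, whereas Fos and Fosb read 8.25 and 7.53 in log2 signal. Egr1 read 14.70, 14.32, 13.72 and 14.46 on the 4 arrays. Batf, Atf3 and Egr4 were on no array.

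Of 17 KLF genes 16 were detected, 11 of them above the chemosensory level, with Klf6 (log2 signal 14.20), Klf3 (13.65) and Klf7 (13.46) foremost and Klf14 on no array. Of 19 SOX genes 12 were detected, 6 of them above the chemosensory level. Sox5, known from cartilage, read log2 signals of 16.48, 16.59, 16.44 and 16.51 on the 4 arrays on 1 probe and 6.49 in untreated cells on the other. Sox9, which acts with it there, stood at 12.47 and Sox4 at 11.52. Sox2, Sox3 and Sox7 were on no array. GATA, PAX and other factors of foreign lineages were detected for 26 of 42 genes, of which 11 were on all 4 arrays and 6 above the chemosensory level. Trp63, of squamous epithelium, led with a log2 signal of 12.39 (7.20 on its second probe), followed by Gata5 (11.07) and Pax9 (9.90). Gata6, Pax1 and Pou5f1 were on no array. Myod1, the master regulator of skeletal muscle, read 7.77 and so lay under the chemosensory level. Foxa2, of endoderm, read 8.41 in untreated cells and 6.20, 5.09 and 4.87 with AR7, CA39 and CA77.

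Hox genes lie in 4 clusters whose members are numbered from the end active in the head to the end active in the tail and limb tips. The A cluster was the fullest, with 10 of 11 members detected, 8 of them on all 4 arrays. Hoxa7 read log2 signals of 14.70, 14.67, 14.78 and 14.49 on the untreated, AR7, CA39 and CA77 arrays. Hoxa3 followed at 12.78, while Hoxa9 read 7.44 and Hoxa10 6.61, below the chemosensory level, and Hoxa11 was on no array. The B cluster had 8 of 10 members detected, with Hoxb13 (11.16) and Hoxb6 (10.74) foremost and Hoxb1 and Hoxb8 on no array. Hoxb7 read 5.68, 6.45, 5.70 and 4.50 and Hoxb9 read 5.97, 6.51, 5.54 and 5.57 in log2 signal on the 4 arrays, with the mark on the untreated array alone.

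In the C cluster 5 of 9 members were detected, of which Hoxc6 (log2 signal 9.17) was the member on all 4 arrays and the others carried the mark on the untreated array alone. These were Hoxc4, Hoxc5, Hoxc9 and Hoxc12, with log2 signals of 5.55, 5.80, 5.67 and 6.30 in untreated cells and higher ones with AR7 (6.42, 6.55, 5.87 and 6.36). The AR7 array is not typical here. Of all genes with such a mark 91.5% read higher with AR7 than untreated, but 33.6% with CA39 and 10.9% with CA77. Hoxc8, Hoxc10 and Hoxc11 were on no array. In the D cluster 4 of 9 were detected, with Hoxd8 at 11.91, Hoxd4 at 9.19 and Hoxd3 at 8.46. Hoxd9 to Hoxd13, the members used in limb tips and genitalia, were all on no array. Above the chemosensory level stood 7 members of the A cluster, 5 of the B cluster, 1 of the C cluster and 3 of the D cluster.

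**Figure D4:**
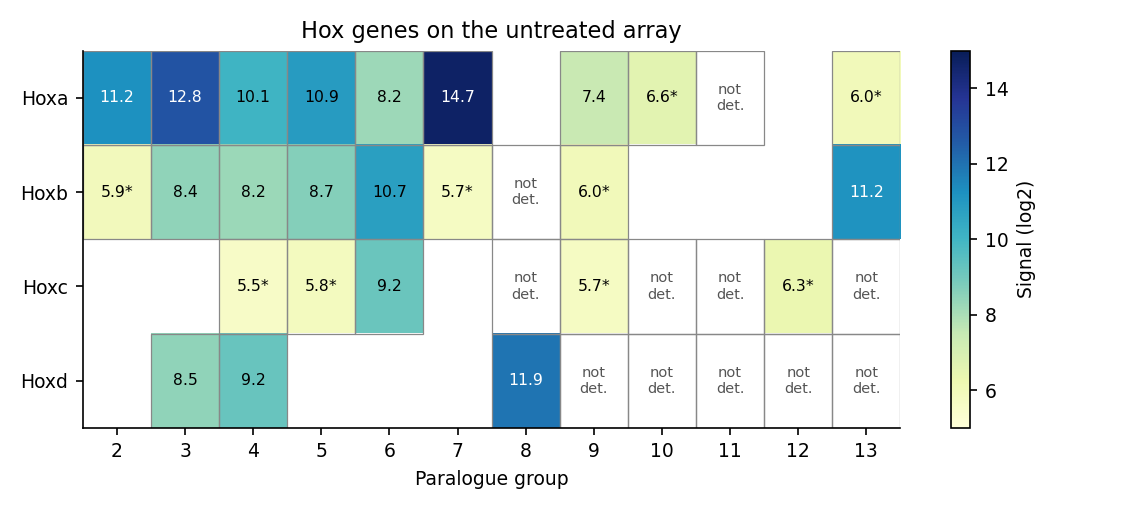
Signal (log2) of the Hox genes on the untreated array, by cluster (rows) and paralogue group (columns, from group 2 upwards). Coloured cells were detected, an asterisk marks members not detected on all 4 arrays, outlined white cells were not detected, and gaps have no gene. The A cluster from Hoxa2 to Hoxa7 is filled on all arrays, and the groups from 9 upwards are dim or missing in the A, C and D clusters, while Hoxb13 reads 11.2.

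Transporters had the highest share of detected members among the 5 families. By the detection mark, carriers of the mitochondrial membrane and of amino acids were the fullest of the larger lists. Mitochondrial carriers were detected for 34 of 36 genes (94.4%), 31 of them above the chemosensory level, with a median percentile of 64.7. Slc25a4, which swaps ADP for ATP, read log2 signals of 17.43, 17.32, 17.50 and 17.20 on the 4 arrays. Slc25a3, the phosphate carrier, read 16.98 and Slc25a5, another ADP/ATP carrier, 16.19 in untreated cells. Slc25a21 and Slc25a31, the germ cell ADP/ATP carrier, were on no array.

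Amino acid transporters were detected for 28 of 31 genes (90.3%, beside 77.3% of all genes), with a median percentile of 41.9. Above the chemosensory level stood 17 of them (54.8%), which lay at the share of 55.0% over all genes. Slc7a1, the carrier of cationic amino acids, read log2 signals of 16.07, 15.92, 16.18 and 15.64 on the 4 arrays. Slc38a2 and Slc38a1, sodium-coupled carriers of neutral amino acids, read 15.56 and 15.002, and Slc3a2, the heavy chain shared by several exchangers, 14.93. Its light chain for large neutral amino acids, Slc7a5, stood at 13.08, whereas Slc7a11, the light chain for cystine, read 6.61 in log2 signal. Slc1a1, Slc7a10 and Slc38a5 were on no array. All 10 glucose transporter genes with a probe were detected, 6 of them above the chemosensory level. Slc2a1, the basal glucose transporter of growing cells, read 14.11, 14.49, 14.40 and 14.25 on the 4 arrays, Slc2a6 12.58 and Slc2a8 12.31 in untreated cells. Genes of the monocarboxylate transporter family, of which only some carry lactate, were dimmer. Of these, 11 of 14 were detected (78.6%), 6 of them above the chemosensory level, and Slc16a10 (12.03) was the brightest. Slc16a1, the widespread lactate carrier, read 8.76, and Slc16a4 and Slc16a14 were on no array.

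Zinc transporters were detected for 20 of 24 genes (83.3%, beside 77.3% of all genes), 15 of them above the chemosensory level. They included Slc39a7, of the secretory pathway, at a log2 signal of 15.96, Slc30a4 at 15.07 and Slc39a11 at 15.04. Slc30a3, Slc30a8 and Slc30a10, known from synaptic vesicles, insulin granules and manganese export, were on no array. Of the subunits and regulators of the sodium pump 11 of 14 were detected but only 4 above the chemosensory level. Among these were Atp1b3 (14.74), Fxyd5 (13.41) and Fxyd1 (11.47). Atp1b1, the beta subunit of many epithelia, read 6.08, 6.65, 5.81 and 5.81 on the 4 arrays and carried the mark on the untreated array alone, and Atp1b2, Atp1b4 and Fxyd4 were on no array. ABC transporters were detected for 36 of 45 genes (80.0%) and exceeded the chemosensory level for 25 (55.6%), which lay at the shares of 77.3% and 55.0% over all genes. Abce1 (15.35) and Abcf1 (15.30), which act on ribosomes and carry nothing across membranes, led, followed by Abcd4 (14.04). Abca1, the exporter of cholesterol, Abca6 and Abca12 were on no array.

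Carriers of organic ions and bile acids, a group known from liver and kidney, were detected for 21 of 29 genes (72.4%), 14 of them above the chemosensory level, with a median percentile of 32.1. Slc10a1, the bile acid carrier of hepatocytes, was nevertheless the brightest transporter of all, at rank 49. It read log2 signals of 18.51, 18.57, 18.48 and 18.48 on the untreated, AR7, CA39 and CA77 arrays. Its second probe read 4.92 in untreated cells and was not detected, so the probes of this gene contradict each other and its level is not settled. Slco2a1, which takes up prostaglandins, read 13.89 and Slco3a1 13.14 in log2 signal. Slc22a2, Slc22a3 and Slc22a4 were on no array.

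Growth factors were the least detected family, and a few ligands and chemokines stood far above the rest. Chemokines and cytokines were detected for 30 of 45 genes (66.7%), 17 of them on all 4 arrays and as many above the chemosensory level. After Ccl2, Ccl7, a neighbouring monocyte chemokine, read log2 signals of 18.01, 18.17, 14.49 and 18.21 on the 4 arrays. All of the 4 leading members were lowest with CA39. Cxcl5, which attracts neutrophils, read 17.35, 17.90, 12.21 and 17.73 in log2 signal. Cxcl1, of the same kind, read 16.16, 16.77, 11.16 and 16.66. Ccl9 read 15.18 in untreated cells. Ccl1, Ccl11 and Ccl20 were on no array, nor were the neutrophil chemokines Cxcl2 and Cxcl3. Il6 read only 6.49 in log2 signal. Ccr2 and Cxcr2, the receptors of Ccl2 and of Cxcl1, were on no array, with log2 signals of 5.28 and 5.16 in untreated cells.

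The PDGF and VEGF families were detected for 8 of 9 genes, all of them on all 4 arrays and 6 above the chemosensory level, with a median percentile of 68.0. Pdgfa read log2 signals of 14.32, 14.38, 14.39 and 14.05, Vegfc stood at 12.75 and Vegfd at 12.67, and Pdgfd was on no array. Of 22 FGF genes 12 were detected (54.5%), 7 on all 4 arrays and 6 above the chemosensory level. Fgf7, the keratinocyte growth factor that mesenchyme supplies to epithelium, read 15.55, 15.49, 15.36 and 15.20 on the 4 arrays. Fgf23 read 11.92 on 1 probe while its other probe was not detected (4.38), and Fgf18 read 8.93. Fgf2, Fgf3 and Fgf4 were on no array. Fgf20 carried the mark in untreated cells alone, with log2 signals of 8.35, 5.82, 4.52 and 5.45.

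In the EGF and neuregulin family 8 of 11 genes were detected, 4 of them above the chemosensory level. Nrg1, a ligand of the ERBB receptors, read log2 signals of 15.19, 15.39, 14.83 and 14.98 on the 4 arrays, Hbegf 12.21 and Ereg 8.84 in untreated cells, and Areg, Btc and Nrg3 were on no array. Of the insulin-like, hepatocyte and neurotrophic ligands 20 of 23 were detected (87.0%), 13 of them above the chemosensory level. Csf1, the macrophage growth factor, read 14.92 with 14.34 and 14.37 on its other probes, and Gdnf, the glial neurotrophic factor, read 14.41, 14.53, 13.07 and 14.46 on the 4 arrays. Mst1 stood at 13.03. Igf1 and Igf2 read 7.23 and 6.02, and Hgf and Ntf3 were on no array.

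Ligands of the TGF-beta superfamily were detected for 22 of 33 genes, 9 of them above the chemosensory level. Tgfb3 read log2 signals of 12.13, 12.14, 12.82 and 11.93 on the 4 arrays, Inhba, the activin A subunit, 11.83, 10.88, 13.81 and 10.68, and Tgfb1 10.92 in untreated cells. Inha, Bmp2 and Bmp6 were on no array. Of 19 WNT genes 14 were detected but only 4 on all 4 arrays and 3 above the chemosensory level. Wnt5a, known from mesenchyme, led with 12.45, 12.29, 11.84 and 12.02. Wnt1 read 9.61, 4.40, 9.67 and 9.36 on the 4 arrays, so it was missed with AR7, and its other probe was not detected in untreated cells (4.95). Wnt10b read 8.95, and Wnt2, Wnt3 and Wnt3a were on no array. Of the 6 matricellular CCN genes, of which Ccn1 and Ccn2 are targets of YAP and SRF, 5 were detected, 4 of them above the chemosensory level. Ccn2, connective tissue growth factor, read 14.74, 13.62, 16.39 and 13.88, Ccn1 14.35, 14.16, 13.25 and 14.50, and Ccn4 12.36 in untreated cells. Ccn6 was on no array.

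Setting ligands beside their receptors showed both complete and incomplete pairs. These pairs were chosen after the values were known. Pdgfa (log2 signal 14.32) met its receptor Pdgfra (11.40), Csf1 (14.92) met Csf1r (11.54), and Kdr, the VEGF receptor known from endothelium, read 11.91 on 1 probe with its other probe not detected (5.21). Gdnf (14.41) met neither of its receptor chains, since Ret and Gfra1 were on no array. Kitl was detected at 10.33 without its receptor Kit, and Met, the receptor of hepatocyte growth factor, read 10.13 while its ligand Hgf was on no array. These are RNA signals and say nothing of protein.

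**Figure D5:**
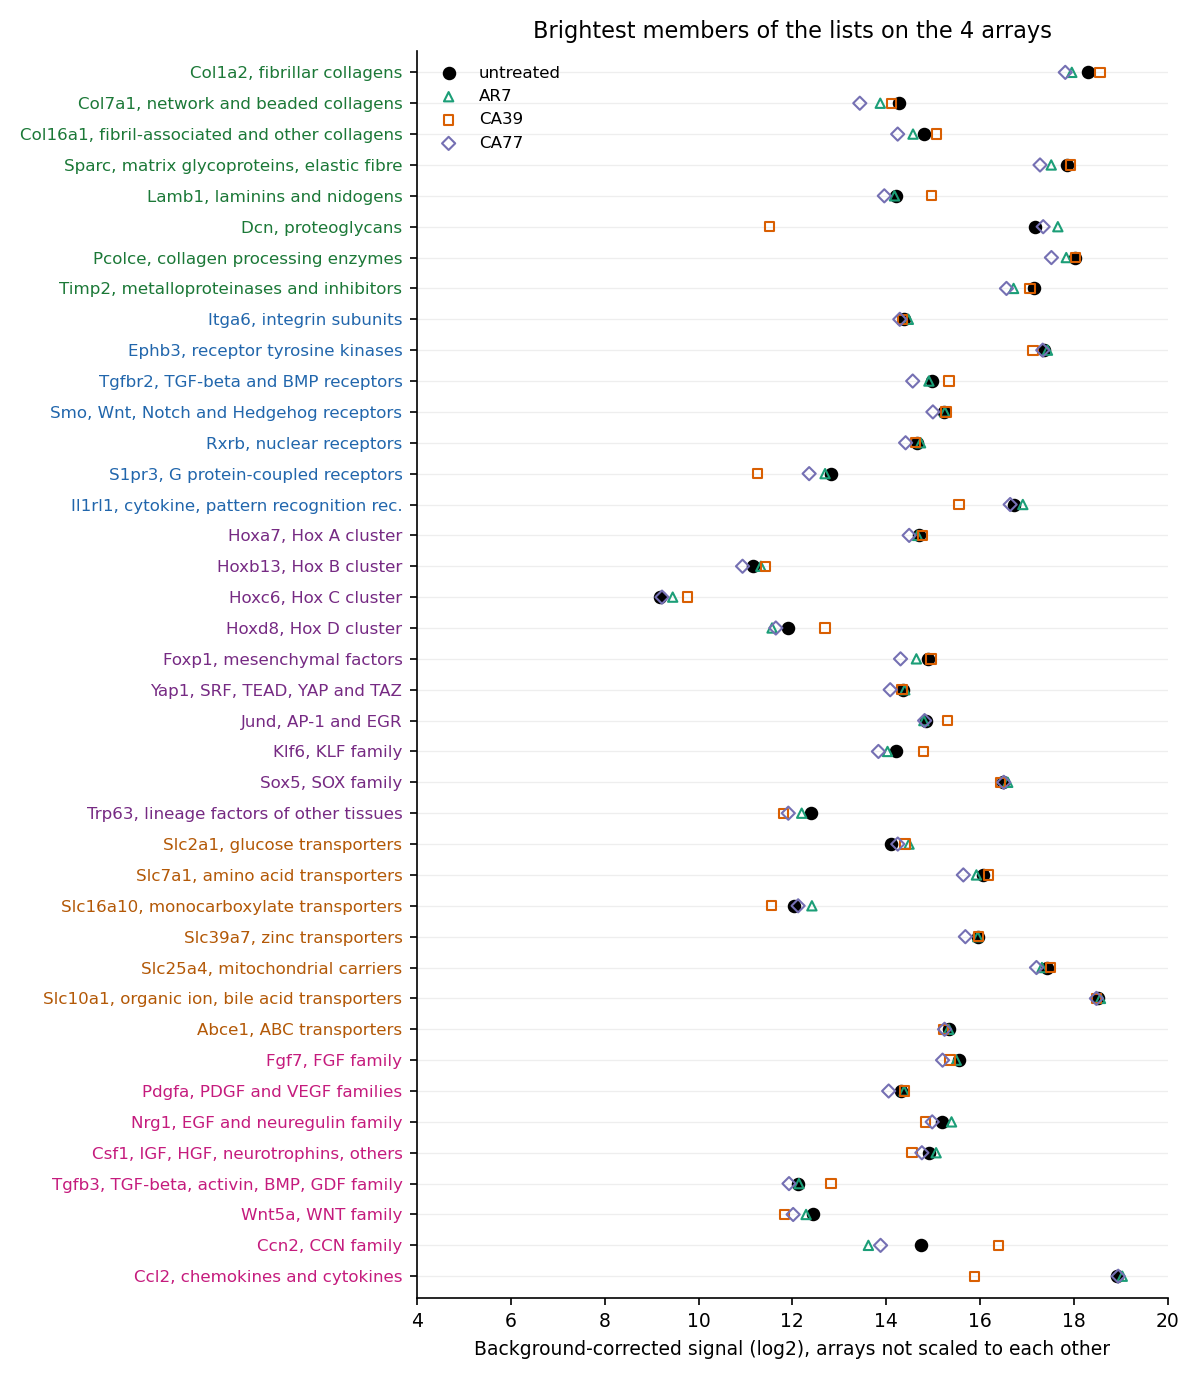
Signal (log2) of the brightest member of each list shown in untreated cells (filled circles) and on the AR7 (triangles), CA39 (squares) and CA77 (diamonds) arrays, which were not scaled to each other. The symbols lie close together for most genes, and the squares of Ccl2 (15.89) and Dcn (11.51) lie far below their untreated circles (18.93 and 17.18).

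Of the family members and markers, those marked as detected on the untreated array alone were 9 matrix genes, 17 receptors, 22 transcription factors, 10 transporters, 23 growth factors and 11 cell type markers. These were 5.20%, 6.72%, 11.9%, 4.93%, 13.7% and 11.7% of the members, beside 6.04% of all genes. The brightest pair of each of the 5 families were Col15a1 and Col2a1 (log2 signals 6.63 and 6.55), Itgad and Hnf4g (6.75 and 6.55), Foxa2 and Klf15 (8.41 and 6.43), Slc25a23 and Atp1a4 (6.61 and 6.30) and Fgf20 and Wnt8b (8.35 and 6.71). With the exception of Foxa2 and Fgf20 all of these lay under the chemosensory level. None of them was marked on the AR7 array. There, Col15a1, Col2a1, Hnf4g, Klf15, Slc25a23 and Atp1a4 read higher, at 6.88, 7.11, 7.07, 6.77, 6.89 and 6.80. Itgad and Wnt8b read lower there, at 6.07 and 6.64. The direction again depended on the array, since Col15a1, Col2a1, Klf15 and Wnt8b read lower with CA39 and with CA77 than untreated. Among all genes marked in untreated cells alone, 91.5% read higher with AR7, but 33.6% with CA39 and 10.9% with CA77. By kind of gene, 78.6% of protein-coding genes were detected in untreated cells and 56.9% exceeded the chemosensory level, beside 55.2% and 20.1% of 979 lncRNA genes.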

How the data were processed

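Total RNA of 4 NIH-3T3 cultures was labelled with Cy3 and hybridised to 4 single-colour Agilent mouse arrays. The authors extracted spots with Agilent Feature Extraction 10.7.3.1, and deposited linear spot intensities beside background and quality columns. The submitters' processing notes name the oligo package and RMA, but the deposited series table equalled the scanner values at all 62976 spots. Here, median spot signals were corrected with normexp (offset 0, limma 3.58.1, R 4.3.3), flagged and control spots were left out, and spots of a probe were averaged on the log2 scale. Arrays were not scaled to each other. A probe was detected when over 50% of its spots were marked well above background, and a gene when any of its probes was. Symbols came from RefSeq accessions, which matched 27512 of 55681 probes. Of 1065 list members, 11 had no probe of that name and 9 were matched by an older symbol. Members and lists were chosen with earlier results of these data known. In each list the 3 brightest members and the first 3 (in list order) seen on no array were named, with others added after their values were seen. Some members are not reported here. Detection counting was tested on simulated data over 20895 genes and recovered 100.0% of the planted calls. This checked the counting only and says nothing of whether a mark reflects RNA. Alternatives were other detection marks, background corrections and choices of probe.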

Additional observations from a re-analysis of the deposited data

Results flagged for a closer look

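Probes without a gene symbol, which the description of families does not use, gave signal well beyond the control spots: 63.2% of them (17601 of 27866) were detected on the untreated array, beside 0.974% of the negative control spots, and 24.8% exceeded the chemosensory level. Of those named by a chromosome interval, 61.2% (9852 of 16106) were detected and 19.1% exceeded that level. Their part in unspecific binding was not tested.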

How the results depend on the processing

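With 1 array per condition no array could be left out, and the spread between cultures is unknown. No paired analysis was possible because each condition has 1 sample. Of 81 recalculations 77 stayed within 1.5 times the count or within 15.1 percentile points. The number of growth factors fell from 119 to 73 when detection on all 4 arrays was required. Requiring a signal above the chemosensory level, an alternative chosen after seeing the data, lowered receptors from 196 to 128, transcription factors from 137 to 85 and growth factors from 119 to 62. Under the other detection marks the number of detected genes lay between 15083 (all probes of a gene detected) and 18802 (the pixel significance mark), beside 16162. With the software's processed signal 15 of the 20 brightest genes recurred. With plain background subtraction and with a normexp offset of 50 all 20 recurred. These corrections keep the order of the spots, so ranks could hardly change. Their part of the 77 therefore says little. Signal near background limits every statement on dim genes.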
